A study of Arabidopsis thaliana with 16 samples.

Results

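Of 22746 probe sets on Affymetrix ATH1 arrays of Arabidopsis thaliana root tips, 187 were much lower in cpc try roots than in Col roots on both media, and these 187 members are described here. They were chosen by a rule: a difference of cpc try minus Col of -1.5 or lower on the log2(signal + 4.1) scale on medium with NaCl and again on standard medium, with a mean Col signal of at least 50 on standard medium. Before exclusions 201 probe sets passed, 0.884% of all. Of these, 11 that belong to genes named in the rule, among them the expansins EXPA7, EXPA8 and EXPA18, and 3 class III peroxidases were left out. The annotation lists a single gene for 103 members, several genes for 2 and none for 82. The exclusions worked on listed genes only. The 82 were therefore not screened, and could hold genes of the kinds left out. The members were proposed as root hair-linked, and how far the data bear on that name is given below.

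The study compared 4 genotypes, all labelled ecotype Columbia, on 2 media with 2 arrays for each combination, 16 arrays in all. The mutants were wer-1 myb23-1, scm-2 and cpc-1 try-82, here wer myb23, scm and cpc try, and the wild type is called Col. By title and description, the seedlings of every group were grown for 5 days. They were then moved for 1 hour to medium with 140 mM NaCl or to standard medium, so the Standard arrays shared the transfer. For the mutant Standard arrays the growth medium entry of the labels disagrees, as given under processing below. About 30 roots, cut about 5 mm above the tip, were pooled for each array. The mutant alleles act in the whole plant, and each array reads all cell types of the root tip together. In such bulk samples fewer cells of a type and less RNA per cell cannot be told apart.

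The root epidermis forms hair cells and non-hair cells in files. WEREWOLF (WER) and its relative MYB23 are MYB transcription factors that promote the non-hair fate. CAPRICE (CPC) and TRIPTYCHON (TRY) are small MYB proteins that lack an activation domain, move between cells and oppose WER, which lets hair cells form, and SCRAMBLED (SCM) is a receptor-like kinase through which epidermal cells read their position. As background from work on these mutants, wer myb23 roots form hairs in nearly all epidermal files, cpc try roots form almost none, and scm roots form both cell types out of their usual files. A growing root hair is a tip-growing cell that secretes extensins and other wall proteins and depends on receptor-like kinases and calcium signals.

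The authors' MAS5 signals had a trimmed mean of 250.03 on every array, and median signals ranged from 72.5 to 86.0. The correlation between replicates over probe sets was 0.907 to 0.952, and probe sets are not independent replicates. With 2 arrays in a group the precision of each value is limited. TRY, the only mutated gene with a named probe set, had signals of 501 and 481 on NaCl and of 751 and 870.0 on standard medium in the arrays labelled cpc try, against 15.6 and 9.98 on NaCl and 47.8 and 49.7 on standard medium in Col. TRY signal was thus present, and higher, in the arrays labelled cpc try, and the labels give no lesion for the allele. None of the listed markers of meristem, endodermis, stele, root cap or shoot had a named probe set, so the labelled tissue was not checked against them.

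The members' level in cpc try set them apart by construction. Their median signal on the 2 cpc try arrays was 25.7 and 19.5 on NaCl and 21.2 and 22.7 on standard medium, against 152 and 130.1 on NaCl and 192 and 189 on standard medium in Col. Between 88 and 99 of the 187 members lay under the 25th percentile of all signals on a cpc try array, and at most 15 did so on any array of the other genotypes. The difference of cpc try minus Col had a median of -2.43 on NaCl, with a range of -6.87 to -1.52, and a median of -2.80 on standard medium, with a range of -8.79 to -1.503. On standard medium 78 members were at -3 or lower and 18 at -5 or lower, and 119 members differed more there than on NaCl. These values chose the members and are a description, with no test.

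The threshold cut through a continuous range. For 25 members the weaker of their differences was above -1.6. Named genes just inside were AT5G51380 and AT1G79890, each with a weaker difference of -1.503, AT3G23605 at -1.504, then AT5G40510 at -1.51 and AT2G44200 at -1.52. Named genes just outside were AT4G14980 and AT1G11540, each with a weaker difference of -1.48, AT2G23700 at -1.48 and AT3G42140 at -1.47. Probe sets with no gene listed also stood at this edge, among them the nearest of all outside, at -1.492, and another inside at -1.515.

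**Figure D1:**
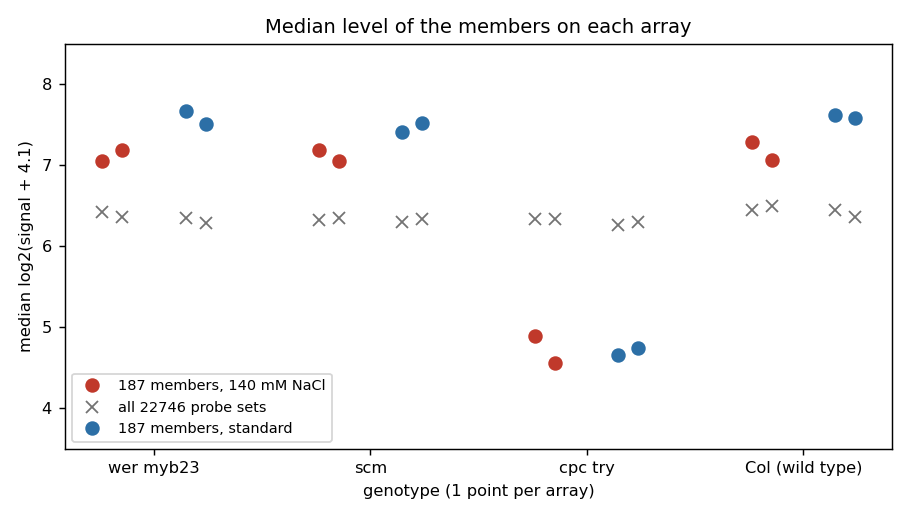
Median of log2(signal + 4.1) on each of the 16 arrays, by genotype, for the 187 members (filled circles, red on 140 mM NaCl and blue on standard medium) and for all 22746 probe sets (crosses). The members' median lies below that of all probe sets on the 4 cpc try arrays and above it on the other 12; cpc try and Col chose the members, wer myb23 and scm did not.

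In wer myb23 and scm, whose arrays the rule did not use, the members stayed close to their Col level. Their median signal was 129 and 141 on NaCl and 199.6 and 178 on standard medium in wer myb23. In scm it was 142 and 129 on NaCl and 166 and 179.6 on standard medium. All 4 group means of wer myb23 and scm lay nearer to Col than to cpc try for 165 members, and none of the 4 did for 6 members. The 6 are AT2G06020, AT5G28890, AT4G08020, AT2G36470, AT2G07330 and a probe set with no gene listed, and 5 of these 6 failed the filter on low values. The comparisons share the Col and cpc try arrays that chose the members, so their counts are a description.

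For 140 of the 187 members (74.9%) all 12 arrays of the other genotypes lay above all 4 cpc try arrays, against 2.12% of all probe sets. The 4 wer myb23 arrays lay above the 4 cpc try arrays without overlap for 148 members, against 5.44% of all probe sets. The 4 scm arrays did so for 158 members, against 4.91% of all. The 4 Col arrays did so for 171 members (91.4%), against 5.21% of all. The rule used the Col and cpc try arrays, and it set a minimum for the Col signal. The shares in this paragraph therefore follow in part from the choice of members and carry no test. The separation followed the signal: the 12 arrays were clear of cpc try for 24 of 56 members with a Col signal of 50 to 100 (42.9%), for 65 of 76 members with 100 to 400 (85.5%) and for 51 of 55 members with 400 or more (92.7%).

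In wer myb23, as in scm, the median member lay at or slightly below its Col level. The difference of wer myb23 minus Col had a median of -0.14 on NaCl and -0.04 on standard medium over the 182 members that passed the filter, and that of scm minus Col a median of -0.08 on NaCl and -0.15 on standard medium. Both wer myb23 arrays lay above both Col arrays for 26 members on NaCl (13.9%, against 16.7% of all probe sets) and for 30 on standard medium (16%, against 18% of all). They lay below both Col arrays for 51 members on NaCl (27.3%, against 20.9% of all) and for 55 on standard medium (29.4%, against 22.3% of all). Both scm arrays lay above both Col arrays for 20 members on NaCl (10.7%, against 15.4%) and for 12 on standard medium (6.42%, against 17.3%). They lay below for 54 on NaCl (28.9%, against 23.7%) and for 61 on standard medium (32.6%, against 20.8%). The rule used the same Col arrays and set a minimum for their level, so these shares carry no test.

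**Figure D2:**
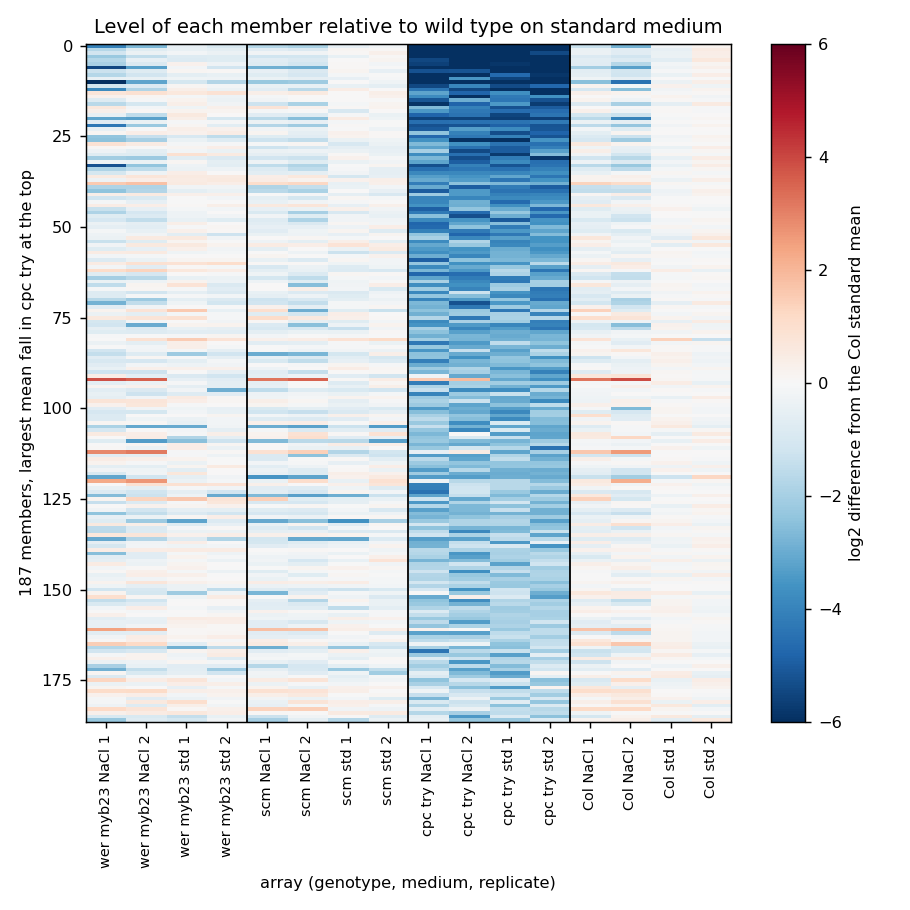
Difference of log2(signal + 4.1) on each array from the Col mean on standard medium, 1 row for each of the 187 members, sorted with the largest mean fall in cpc try at the top, columns grouped by genotype. Blue fills most of the 4 cpc try columns, though not the row of AT1G05340 on NaCl. The wer myb23, scm and Col columns are mostly near white, with some red or blue rows, more of them on NaCl.

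Some of the members with a role known to the field are first described by level; the 44 that were grouped by role were grouped after their values were seen, so nothing rests on the choice of groups. Signals are compared between arrays for 1 probe set at a time, and not between probe sets. The largest falls lay outside these groups. The 11 members with the largest mean falls, down to -7.67, had no gene or several genes listed. The lowest of these, probe set 251226_at, had signals of 1.9 and 4.69 on NaCl and 1.59 and 3.21 on standard medium in cpc try, against 1119 and 402 on NaCl and 2478 and 3288 on standard medium in Col. On the 8 arrays of wer myb23 and scm it lay between 170.4 and 2456. The largest falls of named genes were those of AT3G12540, with a mean difference of -4.88, and AT2G34910, with -4.62. AT3G12540 had signals of 0.907 and 10.4 on NaCl and 1.35 and 4.36 on standard medium in cpc try, against 253 and 192 on NaCl and 264 and 181 on standard medium in Col, and lay between 99.6 and 235 in wer myb23 and scm. AT2G34910 had signals of 49.5 and 13.2 on NaCl and 33.9 and 2.13 on standard medium in cpc try, against 601 and 552 on NaCl and 461 and 501 on standard medium in Col, and lay between 491 and 914 in wer myb23 and scm. In each of these 3 members the 4 cpc try arrays lay below the other 12 with no overlap.

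Among the wall-linked members were 6 genes whose products build or modify the cell wall. AT3G54580, an extensin-like protein, had signals of 35.6 and 7.38 on NaCl and 21 and 11.2 on standard medium in cpc try, against 279.8 and 185 on NaCl and 309 and 388 on standard medium in Col, and lay between 211 and 378 in wer myb23 and scm. AT4G08410, also extensin-like, had signals of 30.7 and 47.5 on NaCl and 104 and 20.1 on standard medium in cpc try, against 346 and 135 on NaCl and 561 and 504 on standard medium in Col. Its highest cpc try array came close to its lowest array in wer myb23, and the difference of cpc try minus Col was -2.38 on NaCl and -3.39 on standard medium. AT3G01720 encodes a galactosyltransferase that adds galactose to serine residues of extensins. It had signals of 228 and 223 on NaCl and 285 and 288 on standard medium in cpc try, against 839 and 675 on NaCl and 972 and 1219.7 on standard medium in Col, with closely matching cpc try replicates and no overlap. The other wall-linked members were the hydroxyproline-rich glycoprotein AT5G19800, the dirigent-like protein AT4G11210 and TBL21, a member of the trichome birefringence-like family, which has roles in wall polysaccharide acetylation. Over the 6 genes the mean difference of cpc try minus Col ranged from -3.81 to -1.82. On all other arrays 5 of the 6 were clear of cpc try. The margin was narrow for AT4G11210 too, with a lowest other array of 232.8 against a highest cpc try array of 219.6.

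Secreted proteins of the CAP family, which holds the pathogenesis-related proteins of type PR-1, gave 4 members. AT4G33730 had signals of 2.1 and 9.06 on NaCl and 29.3 and 2.92 on standard medium in cpc try, against 201 and 91.7 on NaCl and 246 and 535 on standard medium in Col, and lay between 95.1 and 463 in wer myb23 and scm. AT4G30320 had signals of 44.5 and 19.5 on NaCl and 19.2 and 49.8 on standard medium in cpc try, against 182 and 151 on NaCl and 388 and 471 on standard medium in Col. AT4G25790 and AT4G07820 had mean differences within the same range of the 4 genes, -4.27 to -2.87. For AT4G07820 the genotypes other than cpc try also lay apart: its signals were 269.9 and 319 on NaCl and 195 and 167 on standard medium in wer myb23, against 78.6 and 88 on NaCl and 66.9 and 61.1 on standard medium in scm. That difference of wer myb23 minus scm was 1.77 ± 0.56 (SE, adjusted p = 0.29) on NaCl and 1.44 ± 0.56 (SE, adjusted p = 0.57) on standard medium, so it did not pass the test on either medium.

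Signalling proteins gave 7 members. AT2G41970 encodes MARIS, a receptor-like cytoplasmic kinase that keeps the wall of growing root hairs and pollen tubes intact. Its signals were 9.48 and 40.4 on NaCl and 28.2 and 8.63 on standard medium in cpc try, against 386 and 259 on NaCl and 434 and 442 on standard medium in Col. In wer myb23 they were 316 and 424 on NaCl and 553 and 519 on standard medium, and in scm 381 and 326 on NaCl and 435 and 349 on standard medium. The cpc try arrays were thus the lowest 4 of 16, far from the rest. AT1G24620 encodes the calmodulin-like calcium sensor CML25. It had signals of 4.73 and 5.54 on NaCl and 2.58 and 2.11 on standard medium in cpc try, against 44.7 and 13.1 on NaCl and 115 and 81.8 on standard medium in Col, and on NaCl its replicates in the other genotypes spread widely, down to 8.49 in wer myb23. The other 5 signalling members were the leucine-rich repeat kinase AT4G31250, the wall-associated kinase-like AT1G16260, the U-box kinases AT4G25160 and AT5G61550 and the RING-H2 protein AT4G09100. Over the 7 the mean difference of cpc try minus Col ranged from -4.08 to -2.09.

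Proteins with DC1 domains, a zinc-binding fold of plant proteins, gave 6 members, of which AT5G54020, AT5G54040 and AT5G54050 lie close together in gene order. AT5G54040 had signals of 34.7 and 6.08 on NaCl and 13.1 and 6.26 on standard medium in cpc try, against 115 and 130.1 on NaCl and 299 and 322 on standard medium in Col. AT5G54020 had signals of 46.9 and 3.42 on NaCl and 33.2 and 7.21 on standard medium in cpc try, against 213 and 125 on NaCl and 289 and 279 on standard medium in Col, and AT5G43030 had signals of 8.11 and 2.87 on NaCl and 1.58 and 1.51 on standard medium in cpc try, against 160.3 and 107 on NaCl and 139.5 and 122 on standard medium in Col. In each of these 3 genes the Col arrays lay above all cpc try arrays. AT5G54050 was dim, with signals of 1 and 11.6 on NaCl and 21.2 and 3.81 on standard medium in cpc try, against 34.8 and 55.6 on NaCl and 55.2 and 48.1 on standard medium in Col, and its cpc try and Col arrays did not overlap either. Over the 6 genes the mean difference ranged from -4.22 to -2.20.

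Enzymes and transporters included AT2G21045, which encodes HAC1, the arsenate reductase that root cells use to turn arsenate into arsenite for efflux. It had signals of 261 and 262 on NaCl and 277 and 318 on standard medium in cpc try, against 4682 and 3929 on NaCl and 5855 and 6132 on standard medium in Col. Its replicates differed little, and the 8 arrays of wer myb23 and scm lay between 3736 and 5857, so the gap to cpc try was wide on both media. AT4G15390, an acyltransferase, had signals of 99.2 and 88.5 on NaCl and 134 and 80.6 on standard medium in cpc try, against 745 and 833 on NaCl and 1122 and 1067 on standard medium in Col, and the methyltransferase AT2G45750 had signals of 167 and 89.4 on NaCl and 90 and 99.3 on standard medium in cpc try, against 476 and 329 on NaCl and 740.2 and 742 on standard medium in Col. ZIP9, a metal transporter of the ZIP family, was dim, with signals of 18.3 and 28.1 on NaCl and 11.9 and 50.4 on standard medium in cpc try, against 71.1 and 94.2 on NaCl and 74.5 and 114 on standard medium in Col, and in wer myb23 on NaCl it read 20.6 and 66.9. Its cpc try arrays overlapped those of wer myb23 and scm.

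Lectins and proteases gave 4 members with high signals that kept a sizeable level in cpc try. JAL33, a jacalin-related lectin, had signals of 839 and 807 on NaCl and 1229.8 and 746 on standard medium in cpc try, against 3138 and 2709.6 on NaCl and 3475 and 2766 on standard medium in Col, and AT2G25980, also a jacalin-related lectin, had signals of 289 and 225 on NaCl and 356 and 586 on standard medium in cpc try, against 1703 and 1527 on NaCl and 1945 and 1932 on standard medium in Col. SBT4.12, a subtilisin-like protease, had signals of 723 and 582 on NaCl and 654 and 675 on standard medium in cpc try, against 2451 and 2659 on NaCl and 2802 and 2261 on standard medium in Col. The papain-type protease AT3G19390, which carries a granulin repeat, had signals of 620.0 and 594 on NaCl and 317 and 209.6 on standard medium in cpc try, against 2239 and 2765 on NaCl and 1968 and 2589 on standard medium in Col. All 4 were clear of cpc try on the other 12 arrays. ZW9, a protein with TRAF-like domains, was similar, with signals of 1496 and 904 on NaCl and 1288 and 374 on standard medium in cpc try, against 4318 and 4231 on NaCl and 3743 and 3119 on standard medium in Col. DI21, named as a drought-induced protein, had signals of 937 and 822 on NaCl and 819 and 834 on standard medium in cpc try, against 4032 and 4489 on NaCl and 5130.3 and 3535 on standard medium in Col, again with no overlap.

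The members also held 8 genes for proteins of mitochondria, ribosomes and the nucleus. Proteins of these kinds are used in most cell types and are not known as markers of root hairs. In which cell types these 8 genes themselves are used was not measured. All 8 were clear of cpc try on all 12 other arrays. AT2G33220, a subunit of respiratory complex I, had signals of 202 and 229 on NaCl and 187 and 226 on standard medium in cpc try, against 1340.5 and 1432 on NaCl and 1535 and 1541 on standard medium in Col, and lay between 1382 and 1726 in wer myb23 and scm. AT2G01090, the hinge protein of complex III, had signals of 41 and 4.16 on NaCl and 28.5 and 45.9 on standard medium in cpc try, against 623 and 587 on NaCl and 699.5 and 531 on standard medium in Col. AT3G11500, the SmG protein of spliceosomal particles, had signals of 622 and 551 on NaCl and 436 and 529 on standard medium in cpc try, against 1857 and 2031 on NaCl and 2141 and 2055 on standard medium in Col. In these 3 genes the replicates were alike outside cpc try and the wer myb23, scm and Col arrays lay together. AT2G40010, a form of the ribosomal stalk protein P0, had signals of 42.5 and 10.8 on NaCl and 2.12 and 4.88 on standard medium in cpc try, against 162 and 274 on NaCl and 250.4 and 236 on standard medium in Col, and SDH1-2, a form of the succinate dehydrogenase flavoprotein, had signals of 39.5 and 25.9 on NaCl and 19.1 and 38.3 on standard medium in cpc try, against 141 and 89.4 on NaCl and 105 and 193 on standard medium in Col. The others were the TFIIH subunit AT1G12400, the cyclophilin-like AT2G36130 and the mitochondrial ribosomal protein AT3G01740. Over the 8 the mean difference ranged from -4.45 to -1.92. Further members with other roles were LHCB4.2, a light-harvesting chlorophyll protein with a mean difference of -1.85, DER2.1, a protein of endoplasmic reticulum quality control with -1.75, and 3 resistance-type NBS-LRR genes with -2.32 to -1.96.

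**Figure D3:**
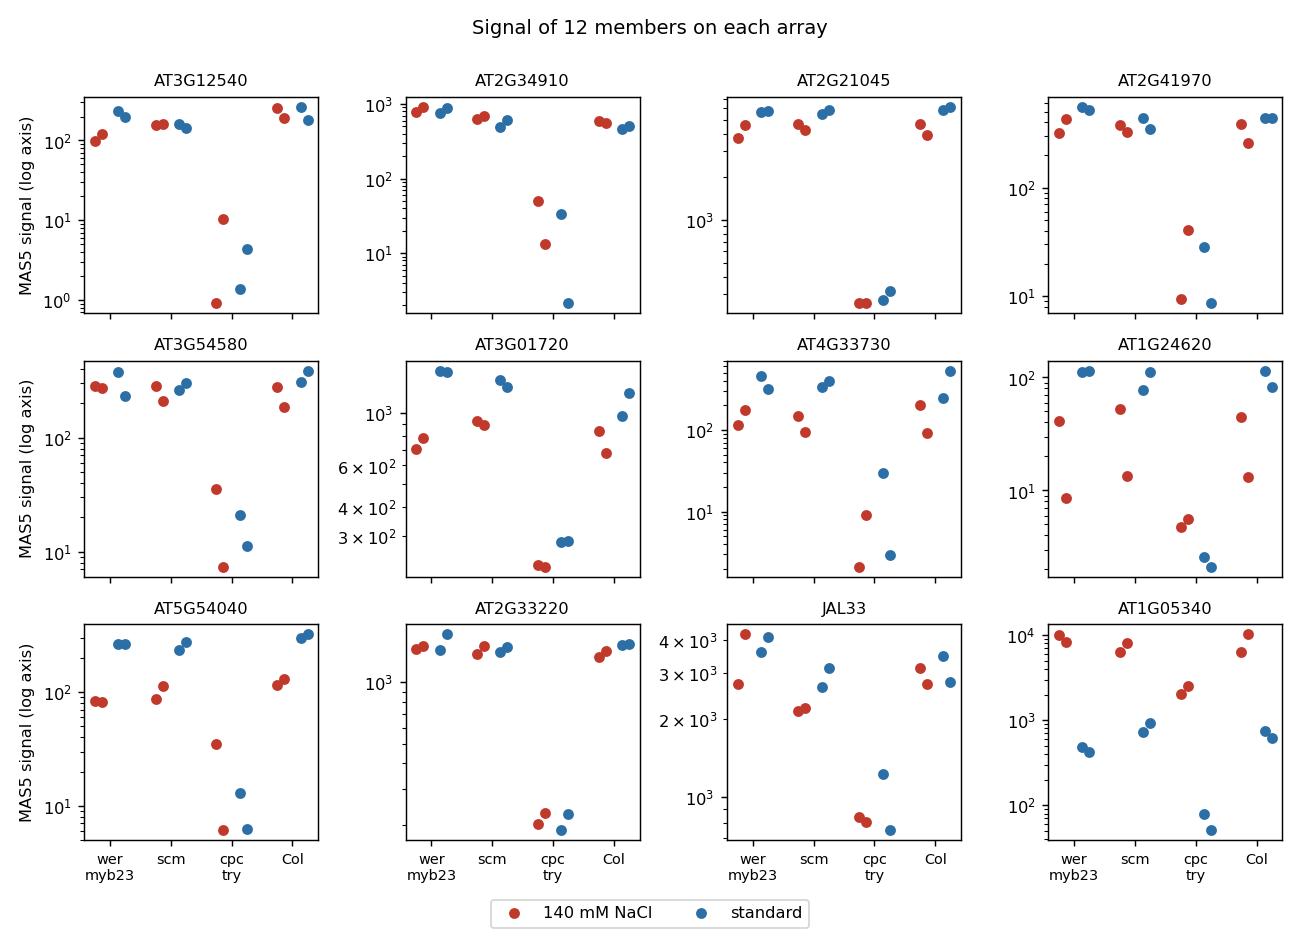
MAS5 signal (log axis, own scale in each panel) of 12 members on each of the 16 arrays, by genotype, with arrays on 140 mM NaCl in red left of arrays on standard medium in blue. The cpc try points are the lowest in all panels on a given medium. AT1G05340 is the panel where both NaCl points lie above both standard points in all 4 genotypes.

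Salt was then examined in wer myb23 and scm, whose arrays had no part in choosing the members. In wer myb23, more members were lower on NaCl than were higher. Of the 182 members that passed the filter on low values, 24 fell on NaCl at a limma adjusted p under 0.05 (4.99% of all 17059 probe sets tested fell) and 9 rose (5.98% of all rose). The 33 called members are 18.1% of the 182, against 11% of all. Calls were more frequent at a higher Col signal on standard medium. They came to 1 of 51 tested members at 50 to 100, 12 of 76 at 100 to 400 and 20 of 55 at 400 or more. The shares of all probe sets, here and below, were not matched for signal. The median difference of NaCl minus standard medium was -0.32 over the members and 0.00 over all probe sets tested, and 132 members had a negative value.

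In scm the direction was the same and fewer members passed. There 11 members fell (3.12% of all fell) and 5 rose (4.72% of all rose), together 8.79% of the members, against 7.84% of all. The median difference was -0.22 over the members and -0.01 over all probe sets, and 119 members had a negative value. For cpc try and Col, whose arrays chose the members, the same median was 0.06 in cpc try and -0.22 in Col. Between 88 and 99 of the 187 members lay under the 25th percentile of all signals on a cpc try array. A further fall on NaCl could hardly show for these, so the cpc try median does not tell whether they respond. The members that failed the filter were AT5G28890, AT4G08020, AT2G06020, AT2G07330 and probe set 258004_at.

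The calls depended on single arrays. Without replicate 1 of wer myb23 on NaCl 12 members were called in that genotype, and the median difference over the members was -0.15, against -0.43 without replicate 2 on NaCl. Without replicate 1 or replicate 2 on standard medium the count was 19 and 20. In scm 6 members were called without replicate 1 on standard medium, 9 without replicate 2 on standard medium and 6 without replicate 2 on NaCl. A fit that leaves out an array also has fewer degrees of freedom, and the lone array is assumed to vary like the other groups.

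The largest change in wer myb23 was the rise of AT1G05340. This gene encodes a small protein with a cysteine-rich transmembrane module, a family linked to stress responses. It had signals of 9947 and 8214 on NaCl against 481 and 422 on standard medium in wer myb23, and of 6318 and 8099 on NaCl against 720.0 and 929.7 on standard medium in scm. The difference was 4.31 ± 0.22 (SE, adjusted p = 5.4e-11) in wer myb23 and 3.12 ± 0.22 (SE, adjusted p = 4.7e-09) in scm. In cpc try it had 2034 and 2543 on NaCl against 78.4 and 50.6 on standard medium, and in Col 6428 and 10271 on NaCl against 757 and 625 on standard medium. This member was therefore low in cpc try on each medium, yet its cpc try level on NaCl exceeded the level of every other genotype on standard medium.

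Probe set 245668_at, with no gene listed, also rose in both genotypes. It had signals of 1705 and 2040.4 on NaCl against 218 and 244 on standard medium in wer myb23, and of 438 and 633 on NaCl against 65.1 and 104 on standard medium in scm. The differences were 2.99 ± 0.36 (SE, adjusted p = 6e-06) in wer myb23 and 2.62 ± 0.36 (SE, adjusted p = 4.7e-05) in scm. The named members that rose in wer myb23 were AT1G05340, AT3G19390, with 0.79 ± 0.23 (SE, adjusted p = 0.029), and AT3G23605, with 0.81 ± 0.25 (SE, adjusted p = 0.044). AT3G19390 was at -0.19 ± 0.23 (SE, adjusted p = 0.78) in scm.

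Among the wall-linked members all 6 had a negative difference in both genotypes, 3 fell in wer myb23 (4.99% of all probe sets fell) and 1 fell in scm (3.12% of all fell). The group was formed after the values were seen, so its count is a description. The sign was not particular to it: the 4 enzymes and transporters were also negative in both genotypes. Of all 182 tested members, 132 were negative in wer myb23 and 119 in scm. AT3G01720, the extensin galactosyltransferase, had signals of 706 and 786 on NaCl against 1517 and 1503 on standard medium in wer myb23, and of 924 and 891 on NaCl against 1379.8 and 1291 on standard medium in scm. It fell in both genotypes, with -1.01 ± 0.16 (SE, adjusted p = 0.00013) in wer myb23 and -0.55 ± 0.16 (SE, adjusted p = 0.032) in scm. AT5G19800, the hydroxyproline-rich glycoprotein, had signals of 2.97 and 47.6 on NaCl against 215 and 168 on standard medium in wer myb23, and of 87.8 and 72.6 on NaCl against 261 and 295 on standard medium in scm. It fell in wer myb23, with -3.35 ± 0.66 (SE, adjusted p = 0.0014), and was at -1.74 ± 0.66 (SE, adjusted p = 0.13) in scm. The dirigent-like AT4G11210 fell in wer myb23, with -1.35 ± 0.36 (SE, adjusted p = 0.018). The extensin-like AT3G54580 was at -0.09 ± 0.42 (SE, adjusted p = 0.95) in wer myb23 and -0.20 ± 0.42 (SE, adjusted p = 0.9) in scm.

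The other named members that fell in wer myb23 came from several groups. AT4G30320, of 4 CAP proteins, had signals of 101 and 133 on NaCl against 315 and 339 on standard medium, a difference of -1.47 ± 0.36 (SE, adjusted p = 0.0089). AT5G54040, of 6 DC1 proteins, had signals of 84.2 and 82.3 on NaCl against 263 and 266 on standard medium, a difference of -1.62 ± 0.44 (SE, adjusted p = 0.018). In both genes the arrays on NaCl lay below those on standard medium with no overlap. HAC1 (AT2G21045) had a small difference of -0.46 ± 0.14 (SE, adjusted p = 0.033). The methyltransferase AT2G45750 fell in wer myb23, with -0.91 ± 0.28 (SE, adjusted p = 0.041), and in scm, with -0.94 ± 0.28 (SE, adjusted p = 0.042). AT5G24313, for which no role is given, fell in wer myb23, with -1.57 ± 0.49 (SE, adjusted p = 0.042).

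None of the 7 signalling members, the 8 mitochondrial, ribosomal and nuclear members or the 3 resistance-type members passed the test in either genotype. Since 11% of all probe sets passed in wer myb23 and 7.84% in scm, a count of 0 in groups this small is near those shares. MARIS (AT2G41970) was at -0.54 ± 0.42 (SE, adjusted p = 0.52) in wer myb23 and -0.14 ± 0.42 (SE, adjusted p = 0.93) in scm. CML25 (AT1G24620) had 41.4 and 8.49 on NaCl against 112 and 114 on standard medium in wer myb23, a difference of -2.29 ± 0.75 (SE, adjusted p = 0.053), which missed the threshold. Over the 8 mitochondrial, ribosomal and nuclear members the difference ranged from -0.50 to 0.38 in wer myb23 and from -0.53 to 0.03 in scm. The complex I subunit AT2G33220 was at -0.09 ± 0.15 (SE, adjusted p = 0.82) in wer myb23 and -0.01 ± 0.15 (SE, adjusted p = 1) in scm.

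Leaving out each array of the compared groups in turn, the calls of AT1G05340 in both genotypes and of AT3G01720 in wer myb23 held each time. AT5G19800 lost its call without replicate 1 of wer myb23 on NaCl, with a difference of -1.91 and an adjusted p of 0.056, and was at -4.78 without replicate 2. Of the 4 arrays left out in turn, the call in wer myb23 held with 2 for AT2G45750, whose difference ranged from -1.27 to -0.54, and with 1 each for AT2G21045, AT4G11210 and AT4G30320. It held with none for AT3G19390, AT3G23605, AT5G24313 and AT5G54040, and in scm with none for AT3G01720 and AT2G45750.

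Members with no gene or several genes listed made up most of the calls, 22 of 33 in wer myb23 and 13 of 16 in scm. The lowest value in wer myb23 was that of probe set 246652_at. Its signals were 17.1 and 95.8 on NaCl against 852 and 427 on standard medium in wer myb23, and 126 and 119 on NaCl against 995 and 929 on standard medium in scm. The differences were -3.72 ± 0.52 (SE, adjusted p = 3.5e-05) in wer myb23 and -2.93 ± 0.52 (SE, adjusted p = 0.00072) in scm. In wer myb23 the value was -2.60 without replicate 1 on NaCl and -4.84 without replicate 2, and the call held. Probe set 251226_at, with the largest fall in cpc try, also fell on NaCl in wer myb23, with -2.66 ± 0.39 (SE, adjusted p = 6.5e-05). In scm it was at -1.47 ± 0.39 (SE, adjusted p = 0.021), a call lost when any 1 of the 4 arrays was left out. The largest change in scm was a fall, that of probe set 263376_at. Its signals were 5.21 and 30.9 on NaCl against 51.9 and 66.2 on standard medium in wer myb23, and 2.96 and 5.04 on NaCl against 93.2 and 115 on standard medium in scm. The difference was -1.80 ± 0.88 (SE, adjusted p = 0.24) in wer myb23 and -3.75 ± 0.88 (SE, adjusted p = 0.0089) in scm, where the call held with 1 of the 4 arrays left out in turn.

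**Figure D4:**
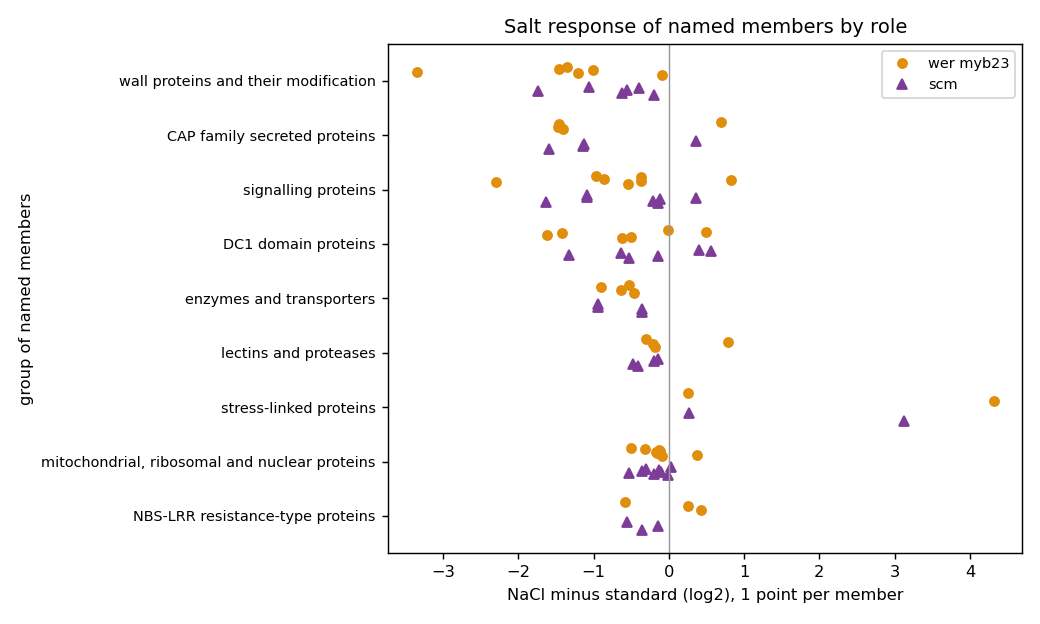
Difference of NaCl minus standard medium on the log2 scale, 1 point for each of the 44 named members with a role, by group, for wer myb23 (orange circles) and scm (purple triangles). All 6 wall-linked members and all 4 enzymes and transporters lie below 0 in both genotypes, and AT1G05340 lies at 4.31 in wer myb23 and 3.12 in scm.

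Calls in wer myb23 and scm were set side by side. Of the 182 members, 10 fell in both genotypes (5.49%, against 2.15% of all probe sets tested) and 4 rose in both (2.2%, against 3.53% of all). None was called in opposite directions (0.0117% of all were). Another 19 members were called in wer myb23 alone (10.4%, against 5.28%), 2 in scm alone (1.1%, against 2.15%) and 147 in neither (80.8%, against 86.9%). The sign of the difference was the same in both genotypes for 145 members (79.7%), and for 66.2% of all probe sets. The 10 members that fell in both genotypes had differences between -0.94 and 0.36 in cpc try, and from -2.83 to -0.53 in Col. Where the cpc try signal was already low on standard medium, a further fall could hardly show. The 4 that rose in both had differences from 1.05 to 5.08 in cpc try and from 1.17 to 3.55 in Col.

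A member called in 1 genotype and not in the other was not shown to respond differently. Tested directly, the salt response of wer myb23 minus that of scm passed for none of the 182 members by limma (0% of all 17059 probe sets passed), and 9 members had an unadjusted p under 0.05 (4.95%, against 5.25% of all). AT1G05340 came closest, with 1.19 ± 0.31 (SE, adjusted p = 0.49).

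**Figure D5:**
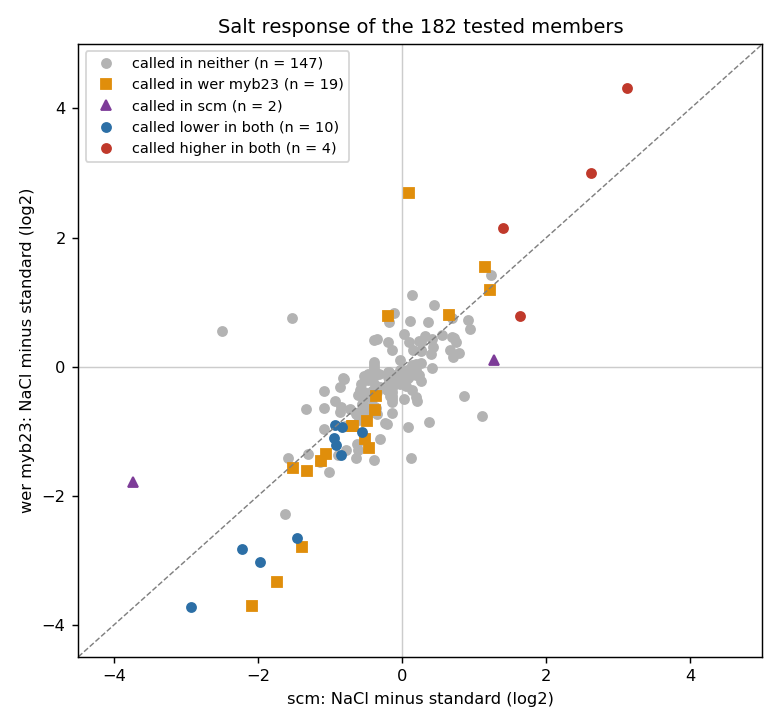
Difference of NaCl minus standard medium on the log2 scale in wer myb23 (vertical axis) against scm (horizontal axis) for the 182 tested members, coloured by where they passed the adjusted p threshold, with the line of equal response dashed. Most points lie near that line in the lower left, and the 4 members called higher in both lie in the upper right.

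Levels in wer myb23 and scm were set against each other on each medium, a comparison the rule did not use. On NaCl a single member passed, probe set 245668_at, with 1.82 ± 0.36 (SE, adjusted p = 0.034) for wer myb23 minus scm (0.276% of all probe sets passed). The call was lost when any 1 of the 4 arrays was left out, with adjusted p from 0.0897 to 0.439. At an unadjusted p under 0.05 there were 21 members (11.5%, against 7.78% of all). Without replicate 2 of wer myb23 on NaCl 5 members passed, all of them lower in wer myb23, the opposite direction to 245668_at. On standard medium none of the 182 members passed by limma (0.0997% of all passed), and 13 had an unadjusted p under 0.05 (7.14%, against 6.79% of all). The median difference was -0.01 over the members on NaCl and 0.09 on standard medium, and over all probe sets 0.02 on NaCl and 0.00 on standard medium.

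The root hair label could be checked in part only. Of 76 genes on a list of hair, patterning and other cell type genes, 5 had a named probe set, and none of these is a member. The remaining listed genes were matched to no probe set. They could be among the members with no gene or several genes listed. The list does not hold the 11 genes that the rule left out by name. Among those, which fell past the thresholds like the members, are EXPA7 and EXPA18, known as root hair expansins. CSLD2, a cellulose synthase-like protein needed for hair growth, had signals of 612 and 528 on NaCl and of 499.0 and 376 on standard medium in cpc try, against 1027 and 1147 on NaCl and 919 and 865 on standard medium in Col. The difference was -0.93 on NaCl and -1.03 on standard medium (limma adjusted p = 0.0016 and 0.00048). SCN1, a regulator of the ROP GTPases that place the hair, was at -0.74 on NaCl and -0.56 on standard medium (adjusted p = 0.0055 and 0.035). FER, the receptor kinase FERONIA, which acts in many cell types, was at -0.09 on NaCl and 0.14 on standard medium (adjusted p = 0.85 and 0.73). RSL3, a transcription factor of hair growth, failed the filter on low values, and TRY rose, by 4.90 on NaCl and 3.94 on standard medium (adjusted p = 9.7e-06 and 0.00011). Over all probe sets in cpc try minus Col, 3.6% fell and 1.99% rose on NaCl, and 3.88% fell and 2.36% rose on standard medium. The members themselves are a mixture: MARIS, CML25, extensin-like and CAP proteins stand beside genes of mitochondria, ribosomes and the nucleus, and most have no role given here.

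The members were spread over the genome. By gene order in RefSeq annotation of TAIR10.1, 98 members could be placed on the 5 chromosomes. They made up 0.43% of the named probe sets of chromosome 1, 1.11% of chromosome 2, 0.709% of chromosome 3, 1.17% of chromosome 4 and 0.796% of chromosome 5, against 0.785% of all. Neighbours within 5 genes of each other were AT3G01720 and AT3G01740, AT4G12990 and AT4G13030, and AT5G54020, AT5G54040 and AT5G54050. The last 3 lie within 100 genes of TRY, where 3 of 100 named probe sets were members, and near CPC 1 of 76 was a member. Members on probe sets whose names end in _s_at or _x_at, 12 in all, may read several similar genes.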

How the data were processed

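Pooled root tips were hybridized to 16 ATH1 arrays. The authors deposited intensity on a linear scale for each probe set, and the submitters' processing notes name MAS5, of which the sources used here give no version or settings. Arrays were grouped by title; for the mutant Standard arrays the growth medium entry of the labels disagrees with title and description, and for cpc try and scm gives 4 days; titles and descriptions were followed. Here 64 control probe sets were left out, and log2(signal + 4.1) was used, which understates the change of dim probe sets. Probe sets whose mean log2 lay under the 25th percentile were not tested, leaving 17059. A linear model with group means (8 groups, 16 arrays) was run in limma 3.58.1 under R 4.3.3 (lmFit, eBayes with trend, 8 residual degrees of freedom). P-values are two-sided and adjusted by Benjamini-Hochberg over all probe sets of a contrast, with a call at an adjusted p under 0.05. On simulated data for the wer myb23 salt response over 17059 probe sets, the fit called 37 of 100 changes of 1 on the log2 scale, 73 of 100 of 2, and 10 of 16859 unchanged probe sets.

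Only contrasts of wer myb23 and scm with each other or across media were tested for the members, since Col and cpc try arrays chose them. The members and lists were chosen with earlier results of these data known, and the role groups after the values were seen. The rule for naming took members with a symbol, the 8 with the highest Col signal, the 8 with the largest fall, the 6 on each side of the threshold and up to 8 with the smallest p in each tested contrast. Other members named, and the probe sets 251226_at, 245668_at, 246652_at, 263376_at and 258004_at, were chosen after their values were seen. Genes came from the platform annotation, with 1 gene for 13513 probe sets, several for 503 and none listed for 8730, and 13436 were matched to RefSeq (TAIR10.1) by gene ID. Same-numbered replicates were not treated as pairs: their deviations from the group means correlated with r from -0.034 to 0.045 across the groups of wer myb23 and scm. Alternatives were another pseudocount, no filter, quantile normalization, median-centring, no trend, a replicate block, only the arrays compared, and each array left out.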

Additional observations from a re-analysis of the deposited data

How the results depend on the processing

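For the 22 called results of named genes and probe sets, the direction was kept under the alternatives tried, and 197 of 264 such checks also kept the call. Uncalled values of named genes were not put through them. The salt count in wer myb23, 33 members, was 19 without a trend in the spread, 61 with only the arrays compared, and 12 to 29 with an array left out. The salt count in scm, 16 members, was 8 without a trend, 41 with only the arrays compared, and 6 to 11 with an array left out. With a replicate block, whose numbers only name the arrays, the count was 34 in wer myb23 and 18 in scm. For wer myb23 minus scm on NaCl, 1 member passed, against 0 with a pseudocount of 1 or without a trend, 4 with only the arrays compared, 1 with the replicate block, and 0 to 5 with an array left out. On standard medium 0 passed, against 1 with a pseudocount of 16, 1 with the replicate block and 7 with only the arrays compared, and 0 with an array left out. The difference of salt responses gave 0 calls under all alternatives. The cause of these moves was not tested, except that a left-out array leaves fewer samples. The rule itself gave 161 members after quantile normalization, 157 after median-centring, 214 with a pseudocount of 1, 127 with a pseudocount of 16, and 180 to 222 with an array left out. Signals near the low end in cpc try limit how exactly the falls are known.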
